A study of Mus musculus with 8 samples.

Results

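The 36 genes described here encode parts of the DNA replication and mitosis machinery, and their messenger RNA was followed in the proximal large intestine of gnotobiotic mice. They were chosen by symbol, with earlier results of these data known, as 15 replication genes and 21 mitosis genes. All 36 were among the 17041 genes of the deposited table, and all 36 were among the 13020 genes with a mean normalized value of at least 10 that were tested. Every mouse was an ApoE knockout, the atherosclerosis-prone strain, raised germ-free, colonized by gavage at 8 weeks of age and dissected at 26 weeks. The core group (3 libraries) carried a community that makes no butyrate. The core plus Ri group (5 libraries) carried that community plus Roseburia intestinalis, which makes butyrate. The labels name the libraries of a group as replicates without saying that each came from a separate animal, and p-values then measure only the spread between these libraries. RNA came from frozen tissue, not sorted cells, while the sources used here do not give each sample's sex, diet, cage or isolator. Apoe itself measured between 11.1 and 27.1 in the 8 libraries. In bulk tissue, fewer dividing cells and less of a transcript per dividing cell cannot be told apart.

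In the colon, stem and transit-amplifying cells at the crypt base divide continuously and their daughters stop dividing as they move up and mature. Genes for replication are switched on by E2F factors as a cell passes from G1 into S phase, and genes for mitosis later, in G2, through the MuvB complex with B-Myb and FoxM1. MuvB docks on a short promoter element called the CHR, often beside CCAAT boxes bound by NF-Y. Butyrate is the main fuel of mature colonocytes and inhibits histone deacetylases. The comparison addresses what a butyrate producer added to the community does to transcripts of the large intestine.

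Promoters are shown first because CHR and E2F letters were unevenly spread over the mitosis and replication genes. RefSeq promoters on build GRCm38.p6, from 250 bases before to 50 after a start site, matched 17 of 21 mitosis and 12 of 15 replication genes. A CHR (TTTGAA or TTTAAA, both strands) was found in 15 of the 17 mitosis promoters (88.2%), in 4 of the 12 replication promoters (33.3%), and in 30.6% of all 27025 genes with a promoter. An E2F element (TTTCCCGC, TTTGCCGC, TTTCGCGC or TTTGGCGC, both strands) was found in 6 of the 12 replication promoters (50%), in 1 of the 17 mitosis promoters, that of Cdk1, and in 2.6% of all. Mcm2, Ccne1 and Rrm2 held a CHR and no E2F element, and Pcna, Rrm1 and Tyms held neither. CCAAT, on either strand, was in 15 mitosis and 8 replication promoters and in 41.1% of all. A match of letters is a description of these windows and not evidence of binding, and the deposited values carry no coordinates, so build mm9, which the submitters name, was not mixed with these positions.

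The stretches printed here are those of the proliferation markers Mki67 and Top2a, of cyclin B1, of Plk1, whose values ran against most mitosis genes, of Cdk1, which holds both kinds of element, and of Mcm6 and Mcm5. Each reads 5′ to 3′ on the gene's strand. Capitals mark CHR and CCAAT in the first 4, these and the E2F element in Cdk1, and only E2F elements in Mcm6 and Mcm5, where matches on the 2 strands overlap.
Mki67, chr7:135716460-135716579, - strand, 200 to 81 bases before the start: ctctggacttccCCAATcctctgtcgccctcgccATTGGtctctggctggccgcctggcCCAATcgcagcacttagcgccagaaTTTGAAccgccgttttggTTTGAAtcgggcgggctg
Top2a, chr11:99024200-99024299, - strand, 110 to 11 bases before the start: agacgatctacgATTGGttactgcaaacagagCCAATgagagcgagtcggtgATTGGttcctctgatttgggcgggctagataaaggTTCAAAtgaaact
Ccnb1, chr13:100786517-100786596, - strand, 110 to 31 bases before the start: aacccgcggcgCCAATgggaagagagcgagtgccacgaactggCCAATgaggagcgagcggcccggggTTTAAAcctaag
Plk1, chr7:122159335-122159434, + strand, 100 to 1 bases before the start: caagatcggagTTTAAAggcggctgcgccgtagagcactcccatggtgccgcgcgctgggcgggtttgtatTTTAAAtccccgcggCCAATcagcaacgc
Cdk1, chr10:69352913-69353052, - strand, 140 to 1 bases before the start: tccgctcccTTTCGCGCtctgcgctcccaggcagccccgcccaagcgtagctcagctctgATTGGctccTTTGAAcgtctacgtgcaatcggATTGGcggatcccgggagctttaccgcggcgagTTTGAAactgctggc
Mcm6, chr1:128359736-128359825, - strand, 120 to 31 bases before the start: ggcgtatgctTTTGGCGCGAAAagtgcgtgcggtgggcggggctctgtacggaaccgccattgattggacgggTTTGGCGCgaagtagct
Mcm5, chr8:75109339-75109418, + strand, 170 to 91 bases before the start: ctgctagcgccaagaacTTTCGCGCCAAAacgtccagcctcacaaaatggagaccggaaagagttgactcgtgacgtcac

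The data behind the values were of moderate depth. Values are the authors' normalized values, which are not divided by transcript length, so levels are compared within a gene and not between genes. Estimated depth, read from the step that 1 read makes in low values, was between 4607587 and 6495700 reads in core and between 5394750 and 15350454 in core plus Ri libraries, and it covers counting error only. In the library where each stood for fewest reads, Mki67 rested on about 1010 reads, while Ccne1 rested on about 10, Cdt1 on 11, Aurkb on 13 and Plk1 on 16. The values of the last 4 genes are the least precise of the 36.

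Across the 36 genes no difference between the communities passed the test, and most means were slightly lower with R. intestinalis. By limma with Benjamini-Hochberg adjustment over all genes tested, 0 of 36 had an adjusted p under 0.05, against 0.0% of all genes tested, and the smallest adjusted p of a member was 0.588. At an unadjusted p under 0.05 there were 2 members, Mki67 and Cenpf, both lower, against 3.69% of all genes tested that were lower at that level, 4.44% that were higher and 8.13% in either direction. Log2 differences, core plus Ri minus core on the log2(value + 1) scale, were below 0 for 16 of 21 mitosis and 12 of 15 replication genes, against 50.4% of all genes tested. Their medians were −0.18 for mitosis and −0.07 for replication, beside −0.0035 for all genes tested. The mitosis count rested partly on a single library. Without core replicate 3, only 12 of 21 mitosis genes were below 0, with a median of −0.03, and 9 of 15 replication genes, with a median of −0.06, against 50.1% of all genes tested. Without core replicate 2 the medians were −0.32 for mitosis and −0.12 for replication.

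**Figure D1:**
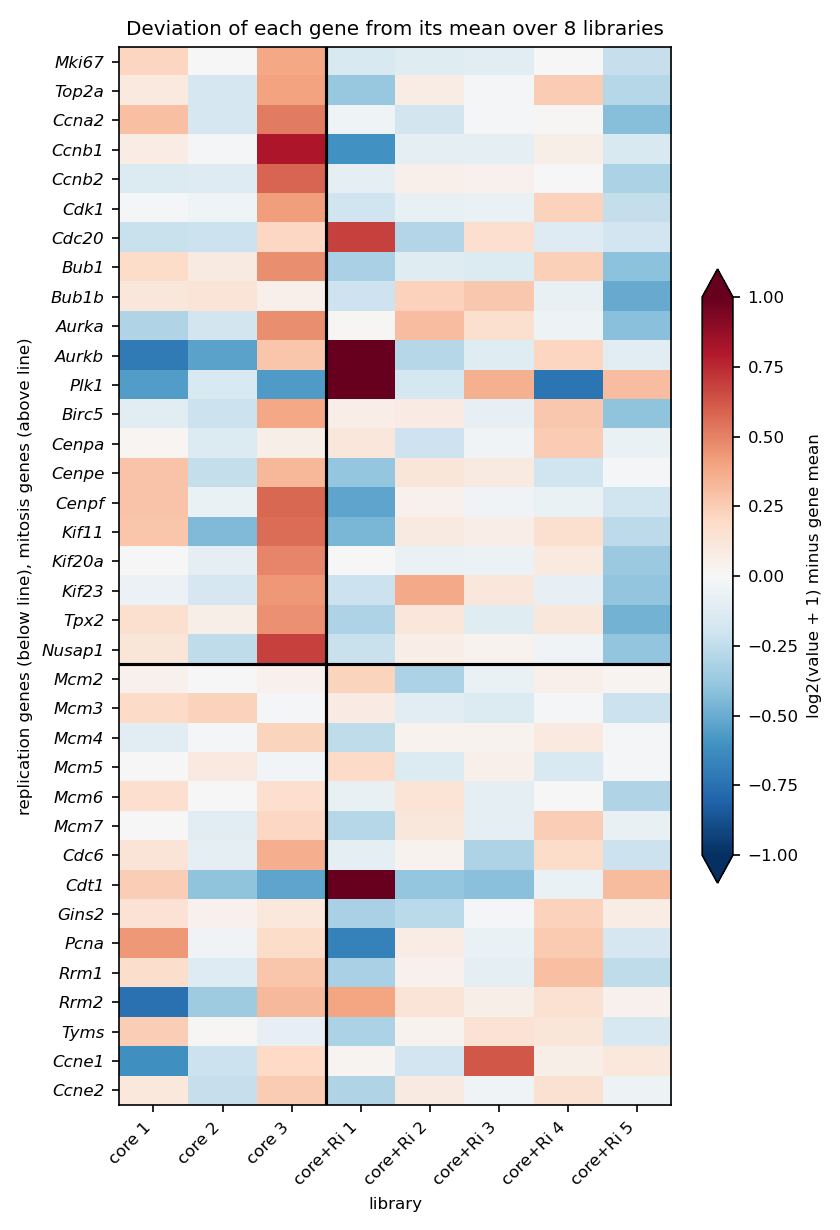
Log2(value + 1) of each of the 36 genes (rows, mitosis above and replication below the horizontal line) in each of the 8 libraries (columns, core left and core plus Ri, written core+Ri, right of the vertical line) minus the gene's mean, with colours saturating at 1 and −1. Core replicate 3 is red for most mitosis genes and core plus Ri replicate 5 is blue, while core plus Ri replicate 1 holds the strongest single deviations, in Plk1, Aurkb and Cdt1.

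Mki67 encodes Ki-67, the coat protein of mitotic chromosomes used everywhere as a proliferation marker. It measured 1758, 1518 and 1977 in core replicates 1 to 3, and 1358, 1389.95, 1409, 1509 and 1291 in core plus Ri replicates 1 to 5. It was the only member whose groups did not overlap, although core replicate 2 and core plus Ri replicate 4 lay close together, against 3.31% of all genes tested with groups apart and lower. Means were 1751 ± 230 (SD, n = 3) and 1391 ± 79.8 (SD, n = 5), a log2 difference of −0.33 (SE 0.122, 95% interval −0.60 to −0.05, limma adjusted p = 0.588). For Mki67 the two-sided exact permutation p was 0.0179, the smallest that 3 libraries against 5 allow. This p restates the separation of the groups and adds no further support. It was 0.0357 when libraries were scaled by a trimmed mean of log ratios or by the list of epithelial markers.

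Top2a encodes topoisomerase II alpha, which untangles replicated chromosomes. Its values were 768, 639 and 948 in core and 552, 754, 712, 857 and 589 in core plus Ri libraries. The ranges overlapped widely, and the log2 difference of −0.18 (SE 0.181) was no larger than its error and was −0.035 without core replicate 3.

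The cyclins that drive mitosis and their kinase all had lower means with R. intestinalis, with overlapping ranges. Ccnb1, cyclin B1, had the most negative difference of the 36, with 129, 121 and 215 in core and 80.1, 114, 115, 127 and 110 in core plus Ri libraries. Core replicate 3 stood well above the other libraries, and core plus Ri replicate 1 was the lowest. The log2 difference of −0.47 had an SE of 0.23 (95% interval −0.98 to 0.04, limma adjusted p = 0.588). Without core replicate 3 it was −0.21, and Pcna, at −0.31, was then the most negative. Ccna2, cyclin A2, which acts from S phase into G2, measured 544, 392 and 633 in core and 428, 388, 434, 445 and 328 in core plus Ri libraries, a log2 difference of −0.35 (SE 0.176). Ccnb2, cyclin B2, averaged 221.8 ± 67.4 and 192.4 ± 19.3. Core replicate 3 alone, at 299.6, lay above all 5 core plus Ri libraries, and without it the Ccnb2 difference was 0.07 in place of −0.17. Cdk1, the kinase that these cyclins activate, averaged 208.4 ± 39.3 and 182.3 ± 24.5.

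Members of the spindle checkpoint and of the anaphase trigger were mixed. Bub1, a checkpoint kinase at kinetochores, measured 60.3, 56.4 and 73.5 in core and 42.1, 48.5, 48.0, 62.6 and 39.6 in core plus Ri libraries. In 4 of the 5 core plus Ri libraries Bub1 was under the lowest core value, with core plus Ri replicate 4 inside the core range (log2 difference −0.40, SE 0.217, limma adjusted p = 0.592). Bub1b, which encodes the checkpoint protein BubR1, was nearly equal in the core libraries, at 132, 133 and 126. The 5 core plus Ri libraries spread on both sides of it, from 85.6 to 147. Cdc20, the activator that starts anaphase, averaged 53.3 ± 9.54 and 59.5 ± 18.3, and its core plus Ri maximum was 90.1, in replicate 1.

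The largest positive differences of the mitosis class were in 2 mitotic kinases. Plk1, the Polo-like kinase of centrosome maturation and spindle assembly, measured 25.4, 34.1 and 25.3 in core and 112, 33.4, 48.9, 22.4 and 47.3 in core plus Ri libraries. Core plus Ri replicate 1 was more than any other library, and replicate 4 was lower than every core value. The log2 difference of 0.68 had an SE of 0.431 (95% interval −0.27 to 1.64, limma adjusted p = 0.61), and it was 0.37 without core plus Ri replicate 1. Aurkb, the kinase of the chromosomal passenger complex, was also highest in that library, with 20.6, 23.4 and 42.0 in core and 83.8, 28.0, 31.5, 40.1 and 32.0 in core plus Ri libraries (log2 difference 0.52, SE 0.383, and 0.25 without core plus Ri replicate 1). Birc5, survivin, is a subunit of that same complex, but it averaged 239.5 ± 55.6 and 232.6 ± 38.8, a log2 difference of −0.03 (SE 0.195). Aurka, the kinase of spindle poles, averaged 110.4 ± 33.8 and 109.5 ± 19.9 and had a log2 difference of 0.01 (95% interval −0.50 to 0.52).

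At the centromere, Cenpf, a large protein of the outer kinetochore, measured 313, 244 and 381 in core and 177, 264, 250.1, 244 and 223 in core plus Ri libraries. The lowest core library lay among the core plus Ri libraries, and the log2 difference was −0.42 (SE 0.187, 95% interval −0.84 to −0.01, limma adjusted p = 0.588). Cenpe, a kinetochore motor, averaged 202 ± 41.5 and 174 ± 25.0. Cenpa, the histone H3 variant that marks centromeres, was steady over all 8 libraries, from 32.4 to 44.8, with a log2 difference of 0.03 (SE 0.211).

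All 5 spindle genes had lower means with R. intestinalis and overlapping ranges. Tpx2, which activates Aurora A and nucleates microtubules, measured 225, 211 and 278 in core and 163, 219, 186, 219 and 145 in core plus Ri libraries. In 3 of the 5 core plus Ri libraries it was under the lowest core value (log2 difference −0.36, SE 0.184, limma adjusted p = 0.588). Nusap1, a microtubule bundler, measured 239.7, 184 and 355 in core and 188, 231, 226, 215 and 167 in core plus Ri libraries. Its log2 difference of −0.29 (SE 0.214) was −0.042 without core replicate 3. The motors Kif11, which pushes spindle poles apart, Kif20a and Kif23, which act in cytokinesis, had log2 differences of −0.21, −0.21 and −0.11. Without core replicate 3 those of Kif11, Kif20a and Kif23 were 0.001, −0.032 and 0.07.

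**Figure D2:**
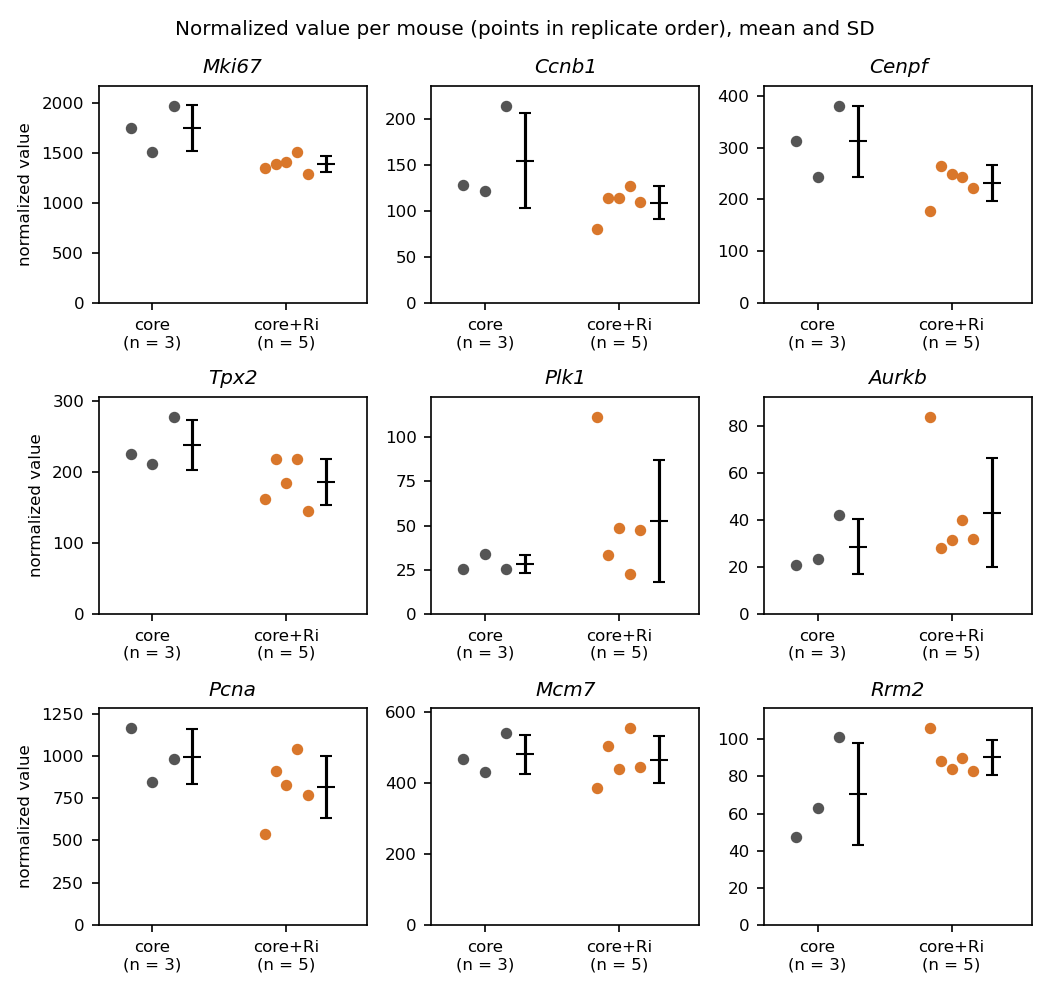
Normalized value of 9 genes (vertical axes, each from 0) in each library, as points in replicate order from left to right, for core (grey, n = 3) and core plus Ri (orange, n = 5), with mean and SD as bars. The heading writes per mouse, but the labels do not say that each library came from a separate animal. Only Mki67 has groups that do not overlap, and the core plus Ri bars of Plk1 and Aurkb are stretched by replicate 1, at 112 and 83.8.

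Of the replication genes, none had groups that did not overlap, and the smallest adjusted p was 0.602. The replicative helicase is a ring of Mcm2 to Mcm7 loaded at origins in G1. All 6 subunits had a difference below 0, but from only −0.21 (Mcm3) to −0.03 (Mcm5), with SE from 0.134 to 0.156. Mcm3 came nearest to separating the groups, with 209.5, 215 and 181 in core and 194, 169, 167, 181 and 158 in core plus Ri libraries (95% interval −0.53 to 0.10). Only core replicate 3 of the core libraries lay inside the core plus Ri range. Mcm5 averaged 305 ± 14.1 and 299 ± 30.3, and its interval of −0.33 to 0.26 was the narrowest of the replication genes. Mcm6 averaged 408.5 ± 27.4 and 363 ± 39.3, and Mcm2, Mcm4 and Mcm7 had log2 differences of −0.04, −0.05 and −0.05. These intervals leave room for changes of either sign.

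Cdc6 and Cdt1 load the helicase, and Gins2 belongs to the complex that helps to switch it on. Cdc6 averaged 64.1 ± 10.2 and 55.2 ± 7.73, and Gins2 75.3 ± 2.73 and 68.2 ± 11.1. Cdt1 was low and uneven, with 22.2, 13.8 and 12.6 in core and 45.4, 14.0, 13.7, 17.7 and 23.4 in core plus Ri libraries. Core plus Ri replicate 1 held the highest Cdt1 value, as it did for Plk1 and Aurkb. The Cdt1 difference was 0.37 with all libraries (95% interval −0.55 to 1.28), 0.089 without core plus Ri replicate 1 and −0.18 when limma's library weights were used.

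Pcna, the sliding clamp that holds DNA polymerase on its template, measured 1167, 843 and 979 in core and 539.5, 908, 826, 1039 and 769 in core plus Ri libraries. Core plus Ri replicate 1 was lower than the other 7 libraries by a wide margin, and replicates 2 and 4 were within the core range (log2 difference −0.31, SE 0.204, limma adjusted p = 0.612, and −0.17 without core plus Ri replicate 1). Pcna and Plk1 thus placed the same library at opposite ends.

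Ribonucleotide reductase, which makes deoxynucleotides, has a large subunit, Rrm1, and a small subunit, Rrm2, whose synthesis is tied to S phase. Tyms makes thymidylate. Rrm2 had 47.6, 62.8 and 101 in core and 106, 88.4, 84.1, 89.7 and 83.1 in core plus Ri libraries. The core plus Ri libraries were close to each other, and 2 of the 3 core libraries were under all of them (log2 difference 0.42, SE 0.241, 95% interval −0.12 to 0.95, limma adjusted p = 0.602), and the difference was 0.17 without core replicate 1. Rrm1 did not share this direction, at 405 ± 58.3 and 361 ± 64.2 (log2 difference −0.17), and the 2 subunits were not tested against each other. Tyms averaged 347.5 ± 41.4 and 326 ± 43.8. Of the E cyclins, which start S phase with Cdk2, Ccne1 had a log2 difference of 0.33 (SE 0.288), with its highest value, 38.8, in core plus Ri replicate 3, and Ccne2 one of −0.07 (SE 0.187).

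**Figure D3:**
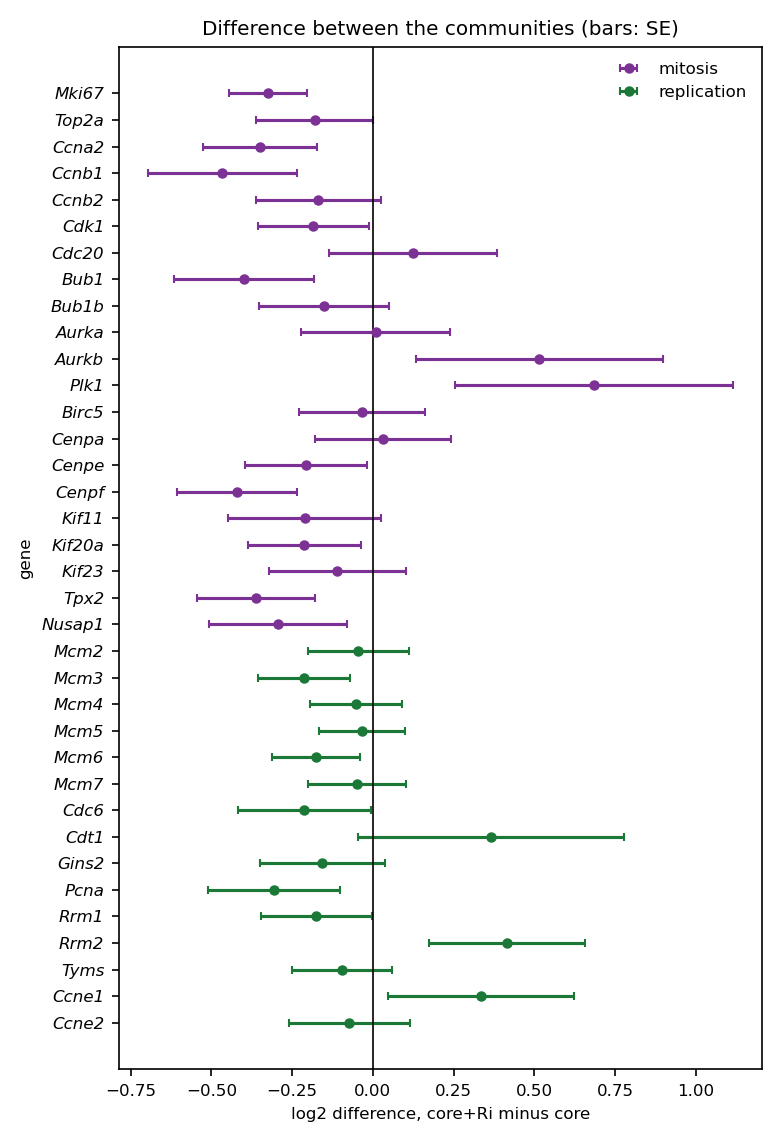
Log2 difference, core plus Ri minus core, of each of the 36 genes (vertical axis) with its limma SE (bars), mitosis in purple and replication in green. Most points lie left of 0, from −0.47 (Ccnb1), and the rightmost are Plk1 (0.68), Aurkb (0.52) and Rrm2 (0.42).

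Single libraries stood apart in these genes, and mitosis genes varied together across libraries. Core replicate 3 was the highest of the 8 libraries for 16 of 21 mitosis genes (76.2%), against 12.6% of all genes tested. Core plus Ri replicate 5 was the lowest for 12 of 21 (57.1%), against 13.5% of all genes tested. The mean log2 deviation of the 21 mitosis genes was 0.38 in core replicate 3, −0.26 in core plus Ri replicate 5, −0.14 in core replicate 2 and between −0.022 and 0.025 in the other 5 libraries. On this mean, 4 of the 5 core plus Ri libraries lay inside the range of the core group. After a correction for GC content, chosen after seeing the data, core replicate 3 was the highest for 17 and core plus Ri replicate 5 the lowest for 13 of the 21. After rescaling by the epithelium list core replicate 3 was the highest for 14, and core plus Ri replicate 1 was then the lowest for 14.

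Over the 210 pairs of mitosis genes the median Pearson r across the 8 libraries was 0.56, and 78.6% of pairs were above 0, beside a median of −0.0019 and 49.9% for all pairs of genes tested. Pairs share the same libraries, so this is a description. Kif20a (r = 0.965 to the mean of the other mitosis genes), Ccnb2 (0.96) and Nusap1 (0.95) followed the class most closely. Plk1 (−0.49) and Aurkb (0.08) did not follow it, although the Plk1 promoter, like those of Ccnb1 and Top2a printed above, holds a CHR and a CCAAT.

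The 15 replication genes moved together far less, with a median r of 0.09 over 105 pairs and 57.1% of pairs above 0. Rrm1 (0.76), Cdc6 (0.72), Ccne2 (0.67) and Mcm7 (0.66) followed the other replication genes, while Cdt1 (−0.59) and Mcm5 (−0.52) ran against them. The mean deviation of the 15 replication genes stayed between −0.08 and 0.11 in all 8 libraries. That of 46 other replication genes ran wider, from −0.204 in core replicate 2 to 0.161 in core replicate 3. For 71 other mitosis genes it ran from −0.181 in core plus Ri replicate 5 to 0.258 in core replicate 3. The r values are from values without the GC correction.

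The GC content of the transcript moved with several of these values. Between the GC content of the 36 members and their deviation in core plus Ri replicate 1, Pearson r was 0.68, beside 0.58 over the 12894 tested genes with a GC value. In core replicate 3 it was −0.62 over the members and −0.45 over all. The log2 difference between communities also followed GC content, with r = 0.58 over the members, 0.78 over the 21 mitosis genes and 0.45 over all genes, which are correlations across genes and not across replicates. The 8 members above 0 had a median GC content of 52.6% and the 28 below 0 one of 46.6%. Plk1 (56%), Cdc20 (55.6%) and Cdt1 (57.8%) were the richest in GC.

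With the GC correction, 17 of 21 mitosis genes were below 0 with a median of −0.13, and 10 of 15 replication genes with a median of −0.10, against 50.2% of all genes tested. Several single differences shrank by over 1.5 times and several grew by as much. Among those that shrank, Top2a was at −0.04 in place of −0.18 and Kif11 at −0.05 in place of −0.21. Cdt1 was at 0.07 in place of 0.37 and Rrm1 at −0.03 in place of −0.17. Among those that grew, Mcm7 was at −0.173 in place of −0.049 and Mcm5 at −0.103 in place of −0.033. Mcm2 was at −0.108 in place of −0.045, Gins2 at −0.281 in place of −0.156 and Cenpa at 0.054 in place of 0.031. Mki67 was at −0.26, Cenpf at −0.28 and Rrm2 at 0.50.

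**Figure D4:**
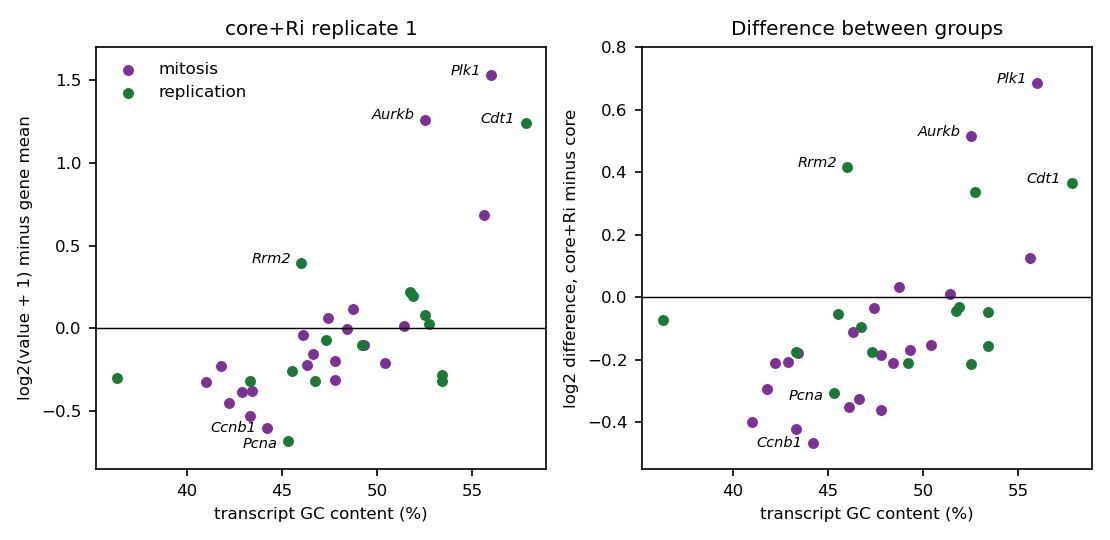
Transcript GC content of the 36 genes (horizontal axes, percent) against their deviation from the gene mean in core plus Ri replicate 1 (left, log2) and against the log2 difference between communities (right), mitosis in purple and replication in green. Points climb from lower left to upper right in both panels (r = 0.68 and 0.58), with Plk1, Aurkb and Cdt1 at the upper right.

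Other genes of the same machinery were read from lists that do not hold the members. Of 71 other mitosis genes tested, out of 72 listed, 51 were below 0 with a median of −0.17, and of 46 other replication genes 29 were below 0 with a median of −0.06, against 50.4% of all genes tested. Without core replicate 3, 42 of the 71 were below 0 with a median of −0.07, and 22 of the 46 with a median of 0.017, so the second median turned. With limma, 0 of either list had an adjusted p under 0.05, while at an unadjusted p under 0.05 there were 4 lower and 1 higher in the first list and 0 lower and 1 higher in the second. Of all genes tested, 3.69% were lower and 4.44% higher at that level. Aspm, a spindle pole protein, measured 132, 100.1 and 127 in core and 75.5, 94.9, 83.6, 86.2 and 89.5 in core plus Ri libraries, so its groups were apart (log2 difference −0.47, SE 0.172, limma adjusted p = 0.588). Mad2l1, which encodes the checkpoint protein Mad2, was apart too, with 222, 172 and 235 in core and 166, 165, 159.8, 148 and 119 in core plus Ri libraries (log2 difference −0.46, SE 0.175). Nuf2 (log2 difference −0.36) and Cdc25c (−0.53) were apart and lower too, so 4 of the 71 were, against 3.31% of all genes tested. Cdca5, sororin, which guards sister chromatid cohesion, was the 1 of the 71 apart in the other direction, against 2.53% of all genes tested. Its means were 15.85 ± 2.2 and 31.4 ± 6.55 (log2 difference 0.93, SE 0.262, limma adjusted p = 0.588), and it rested on about 9 estimated reads in its thinnest library. Dnmt1, which copies DNA methylation behind the fork, was the 1 of the 46 other replication genes apart and higher. It measured 102, 108 and 124 in core and 331, 159, 201, 144 and 167 in core plus Ri libraries (log2 difference 0.78, SE 0.256, limma adjusted p = 0.588). Without core plus Ri replicate 1 the Dnmt1 difference was 0.58. In the same list Rfc4 (log2 difference −0.43) and Rfc3 (−0.37) were lower and Pold2 (0.31) was higher, with overlapping groups.

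Genes upstream of the machinery divided into drivers and brakes. Of 20 cell cycle drivers tested, 9 were below 0 with a median of 0.0032, against 50.4% of all genes tested. Mybl2, which encodes the B-Myb factor that works with MuvB, was apart and higher, at 4.76, 15.97 and 11.5 in core and 57.4, 17.2, 21.01, 18.9 and 25.6 in core plus Ri libraries (log2 difference 1.29, SE 0.467, limma adjusted p = 0.588). It was the 1 of the 20 drivers with groups apart and higher, against 2.53% of all genes tested. The lowest Mybl2 value stood for about 3 estimated reads. The difference was 0.85 without core replicate 1 and 1.01 without core plus Ri replicate 1, which held the highest value. Ccnd2, cyclin D2, averaged 943 ± 304 and 679 ± 139, a log2 difference of −0.45 that was −0.20 without core replicate 2.

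Of 16 cell cycle brakes tested, 15 were above 0, against 49.6% of all genes tested, with a median of 0.29. The mean deviation of this list lay between −0.27 and −0.12 in the core libraries, and between −0.06 and 0.29 with R. intestinalis. Btg1, an antiproliferative gene, measured 824, 1019 and 1025 in core and 1576, 1135, 1424, 1208 and 1640 in core plus Ri libraries. All 5 core plus Ri values lay above the core values (log2 difference 0.54, SE 0.156, limma adjusted p = 0.588). Cdkn2b, the inhibitor p15 of Cdk4 and Cdk6, averaged 211 ± 38.9 and 343 ± 67.1. The member of the list below 0 was Ccng1, cyclin G1, a p53 target, at 1815 ± 269 and 1382 ± 187 with groups apart. With limma, 0 of the 16 had an adjusted p under 0.05. At an unadjusted p under 0.05 there were 3 higher and 1 lower, against 4.44% and 3.69% of all genes tested. Groups were apart and higher for 1 brake, Btg1, and apart and lower for 1, Ccng1, against 2.53% and 3.31% of all genes tested. After rescaling by the epithelium list, which moved the median of all genes tested from −0.0035 to −0.28, 8 of 16 brakes were below 0, against 77.5% of all genes tested, and their median was 0.0068.

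**Figure D5:**
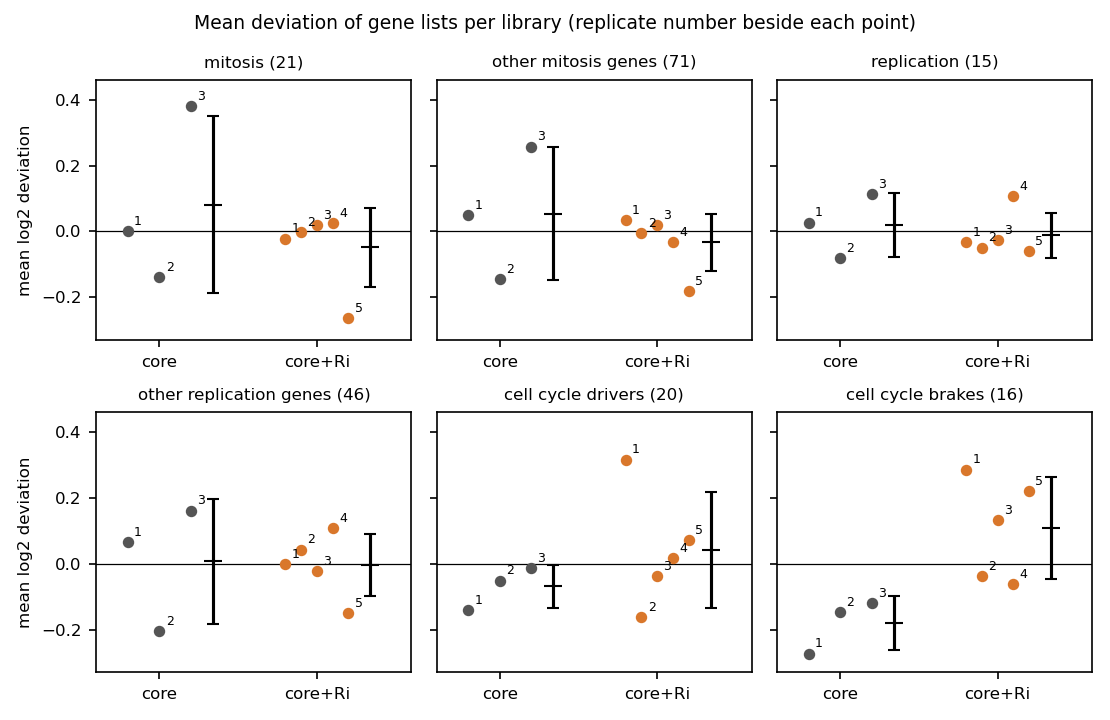
Mean log2 deviation of 6 gene lists (number of genes tested in parentheses) in each library, with the replicate number beside each point, for core (grey) and core plus Ri (orange), and mean and SD as bars. Core replicate 3 is on top for both mitosis lists, at 0.38 and 0.26, and in the list of brakes all 3 core points lie under the 5 core plus Ri points.

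Markers of the cells in the gut wall were measured beside these genes. Of all genes tested, 50.4% were below 0 and 49.6% above 0, beside the marker counts here and in the next paragraph. Epithelial markers, 12 of 12 read in every library, had 9 above 0, and their summed level lay between 108000 and 124000 in core and between 109000 and 137000 in core plus Ri libraries. Crypt base and progenitor markers had 6 of 13 below 0 and summed to between 6210 and 9220 in core and between 6350 and 8240 in core plus Ri libraries. Their sum was highest in core replicate 3, as mitosis genes were, while their mean deviation there was −0.03. Olfm4 was at 0 in some libraries. Smooth muscle markers, 8 of 8 below 0, summed to between 136000 and 189000 in core and between 91500 and 161000 in core plus Ri libraries. Fibroblast markers (6 of 8 below 0) summed to between 8360 and 9450 and between 5640 and 7620. Mature colonocyte markers (2 of 10 below 0) summed to between 74000 and 160000 and between 122000 and 170000.

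Adipocyte markers, all 5 tested below 0, summed to between 1670 and 4270 in core and between 418 and 2320 in core plus Ri libraries. Endothelial markers (5 of 7 below 0) summed to between 924 and 1230 in core and between 756 and 951 in core plus Ri libraries. Macrophage markers (7 of 8 below 0) summed to between 2870 and 4040 and between 1410 and 3980, goblet cell markers (6 of 10 below 0) to between 252000 and 382000 and between 289000 and 413000, T cell markers (3 of 7 below 0) to between 338 and 427 and between 261 and 506, and enteric neuron markers (3 of 6 below 0) to between 837 and 1190 and between 639 and 972. At a limma unadjusted p under 0.05, 4 of 8 smooth muscle, 4 of 5 adipocyte and 3 of 7 endothelial markers were lower. So were 2 of 8 fibroblast and 1 of 6 enteric neuron markers, against 3.69% of all genes tested. Higher at that level were 2 of 12 epithelial and 1 of 10 mature colonocyte markers, against 4.44%. Crypt base, goblet cell, T cell and macrophage markers had 0 in either direction.

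Hoxb13, a gene of the distal colon, was at 25.3 in core replicate 3, where mitosis genes were highest, and at 663 in core plus Ri replicate 5, where they were lowest, but at 2.16 in core plus Ri replicate 2, where they were near their mean. The part of these cell types and of position along the colon in the differences was not tested.

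Outside the fixed lists, the genes most like the mean deviation of the mitosis genes over the 8 libraries were sought among 9643 genes with a mean of at least 50. The first 10 were Ubl5 (r = 0.94), Fut2 (0.94), Rpl22l1 (0.93), Prc1 (0.92), Ncapg (0.92), Bco2 (0.91), Nme7 (0.90), Rpl27 (0.90), Mcts2 (0.90) and Dbf4 (0.89). Of these, 3 (Prc1, Ncapg and Dbf4) belong to the cell cycle lists, which hold 1.28% of the genes searched. For the replication genes the first 10 were Tnfrsf23 (0.96), Atp5o (0.96), Pycard (0.95), Cox6c (0.94), Ptpmt1 (0.94), Tmed3 (0.94), Rpl35a (0.93), Tmem97 (0.93), Ndufb7 (0.93) and Anxa2 (0.93), and 0 belong to those lists.

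The authors' deposited table called none of the 36 at a posterior probability of differential expression of at least 0.95, against 0.481% of its genes. The highest value of a member in the authors' deposited table was 0.3, for Mki67, with a raw fold change of 0.79, followed by 0.08 for Tpx2.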

How the data were processed

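RNA of 8 libraries was compared, 3 core and 5 core plus Ri, grouped by the labels. Bowtie2, RSEM 1.2.23 and build mm9 are listed in the submitters' processing notes, without role or order, and which annotation and strand setting were used is not given in the sources used here. Per the file headers and the values, the authors deposited a normalized expression signal, each library's estimated reads divided by 1 factor. Their deposited comparison holds a score, the posterior probability, and 2 fold changes, each a linear ratio. A further core library, hinted at by the table's name, is not analysed here. Low values lay on the step of 1 read in 79.9% to 84.2% of cases (values under 30, tolerance 0.05 of a step), so whole reads were not assumed.

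Values were tested as log2(value + 1), a scale that compresses changes of low genes, with limma 3.58.1 (R 4.3.3, mean-variance trend) on 13020 genes with a mean of at least 10, with a Benjamini-Hochberg threshold of 0.05. On simulated data of this comparison (12925 genes, varying independently), recovery was 10.4% for the 67 genes given a 1.5-fold change, 40.3% for the 67 given a 2-fold change and 80.3% for the 66 given a 4-fold change, and 6 calls were false. These genes were changed together, which loosens the adjusted threshold, whereas 0 genes passed in the fit of the real values. Recovery of a lone change was not simulated. Alternatives were other pseudocounts, filters, scalings, library weights, replicate blocks, leaving out each library and, added after seeing the data, a GC correction (lowess, span 0.3). GC content and overlaps came from GENCODE M21 by symbol. Exons of 7 members, Ccna2, Ccne2, Cdc20, Gins2, Kif20a, Mcm7 and Nusap1, overlap a gene on the opposite strand, whose reads may not be told apart. Members and lists were chosen with earlier results of these data known. Named genes were all members, up to 4 per pathway list with the smallest limma p, other mitosis genes whose groups were apart, and the 10 most alike per class. One marker list is not reported here.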

Additional observations from a re-analysis of the deposited data

Results flagged for a closer look

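Among the 36 members, 2 had a library apart from the other 4 of its group (a gap to the nearest value of more than 0.71 of the group's range), which chance gives for about 1 in 20 groups. Aurkb was 83.83 in core plus Ri replicate 1, against 28.0 to 40.1 in the other 4. Rrm2 was 106.16 in the same library, against 83.1 to 89.7.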

How the results depend on the processing

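With limma, 0 of 36 members had an adjusted p under 0.05 in the fit reported and in every alternative run, and the smallest member adjusted p ran from 0.0614 with library weights, which called 455 of 13020 genes, to 0.978 without core replicate 1. The sign of the log2 difference held in every alternative for 21 of 36 members. Rescaling by the epithelium list moved all genes (77.5% below 0, median −0.284), and beside that the medians were −0.467 for mitosis and −0.353 for replication. Members with groups apart numbered 1, but 0 with a trimmed mean of M values, 2 with quantile normalization, 4 with the epithelium list and 3 with the GC correction. With 1 library left out they numbered from 1 to 9 (9 without core replicate 2, all lower). Of all 13020 genes tested, 431 were apart and lower and 330 apart and higher in the fit reported. These counts were 506 and 317 with quantile normalization, 690 and 80 with the epithelium list and 406 and 351 with the GC correction. Without core replicate 2 they rose to 1538 and 1042. With core replicate 3 left out they were 919 and 837, beside 1 lower and 1 higher mitosis gene and 1 lower and 2 higher replication genes. Signs turned to −0.155 (Cdc20), −0.271 (Aurka) and −0.245 (Cenpa) with the epithelium list. They turned to −0.048 (Aurka) and −0.031 (Cenpa) with quantile normalization. With library weights they turned to 0.072 (Bub1b), −0.027 (Cenpa), 0.005 (Kif23), 0.022 (Mcm4), 0.021 (Mcm5) and −0.185 (Cdt1). With the GC correction, added after seeing the data, they turned to −0.091 (Cdc20), −0.044 (Aurka), 0.016 (Birc5), 0.041 (Mcm4) and 0.132 (Ccne2). The causes were not tested.

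Leaving out 1 library at a time, the difference ran from −0.289 to 0.067 for Ccnb2, −0.036 to 0.264 for Cdc20, −0.138 to 0.245 for Aurka, −0.152 to 0.147 for Birc5 and −0.029 to 0.086 for Cenpa. It ran from −0.496 to 0.001 for Kif11, −0.228 to 0.073 for Kif23, −0.104 to 0.03 for Mcm2 and −0.123 to 0.04 for Mcm4. For Mcm5 it ran from −0.084 to 0.005, for Mcm7 from −0.122 to 0.039 and for Ccne2 from −0.21 to 0.032. Members whose sign held moved by over 1.5 times as follows. Without core replicate 3 the difference was −0.035 for Top2a, −0.199 for Ccna2, −0.208 for Ccnb1, −0.036 for Cdk1, −0.103 for Cenpe, −0.267 for Cenpf, −0.032 for Kif20a, −0.042 for Nusap1, −0.099 for Cdc6, −0.089 for Rrm1, −0.166 for Tyms, 0.816 for Aurkb, 0.217 for Cdt1, 0.707 for Rrm2 and 0.54 for Ccne1. Without core replicate 2 it was −0.319 for Top2a, −0.544 for Ccna2, −0.388 for Cenpe, −0.323 for Kif20a, −0.514 for Nusap1, −0.324 for Cdc6 and −0.295 for Rrm1. Without core replicate 1 it was 0.322 for Aurkb, −0.127 for Cenpe, 0.601 for Cdt1, −0.187 for Pcna, 0.173 for Rrm2, −0.003 for Tyms and 0.132 for Ccne1. Without core plus Ri replicate 1 it was −0.103 for Top2a, 0.249 for Aurkb, 0.366 for Plk1, −0.129 for Cenpe, 0.089 for Cdt1, −0.09 for Gins2, −0.166 for Pcna, −0.111 for Rrm1 and −0.025 for Tyms. Other such values were −0.103 for Gins2 without core plus Ri replicate 2, −0.234 for Bub1b and 0.21 for Ccne1 without replicate 3 of that group, −0.266 for Rrm1 without its replicate 4, and −0.041 for Bub1b, −0.139 for Kif20a and −0.116 for Mcm6 without its replicate 5.

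Whether replicate numbers pair the libraries cannot be settled from so few pairs. Deviations of same-numbered libraries correlated at −0.115, −0.53 and −0.07 by title and at −0.011, −0.407 and −0.494 by sample name. Those of other-numbered libraries ran from −0.494 to 0.479 by title and from −0.53 to 0.479 by sample name. The group difference was left in these deviations, which pulls correlations between the groups down. With the replicate block by title number the smallest member adjusted p was 0.923, 395 genes in place of 1058 had an unadjusted p under 0.05, and signs turned to 0.003 (Bub1b), −0.023 (Cenpa), 0.023 (Kif23) and 0.017 (Mcm5). With the replicate block by sample name number it was 0.794, with 851 genes, and signs turned to −0.096 (Aurka), 0.008 (Mcm4) and 0.002 (Gins2). Depth limits Ccne1, Cdt1, Aurkb and Plk1 most, since they rest on 10 to 16 estimated reads in their thinnest library.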
